A study of Mus musculus with 23 samples.

Results

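B-lineage cells in a gate meant for stem and progenitor cells were counted and described in droplet single-cell RNA libraries of mouse bone marrow sorted as c-Kit+, Sca1+, Lineage- (KSL). A cell was placed in this class when at least 1 transcript molecule (unique molecular identifier, UMI) was seen for at least 3 of 6 genes: Ebf1, Pax5, Vpreb1, Vpreb3, Igll1 and Cd79a. Members were thus chosen by measured expression, and levels of these 6 genes are given as a description only. Of 78945 cells kept from 11 libraries, 5812 (7.36%) met it, 4852 of 50460 at baseline and 960 of 28485 after transplantation.

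All mice carried Mx1-Cre, an interferon-inducible recombinase that acts in blood cells and in several other tissues, and the groups were Control, Ezh2 KO (floxed Ezh2) and Jarid2 KO (floxed Jarid2). At baseline the mice had not been transplanted and were 2 months of age, replicate 1 of each genotype being male and replicate 2 female, and their cells were also stained with 6 barcoded antibodies. Transplant libraries held donor (CD45.2) KSL cells sorted 18 weeks after 500000 donor marrow cells were given with 500000 CD45.1 competitor cells to irradiated recipients, and comprised 1 Control, 2 Ezh2 KO and 2 Jarid2 KO libraries. The labels do not say whether a transplant library was 1 recipient or a pool, and p-values measure only the spread between the libraries at hand. The 6 H3K27me3 samples of the series were not analysed here.

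Ezh2 is the enzyme of Polycomb repressive complex 2 (PRC2), which places the repressive mark H3K27me3, and Jarid2 is an accessory subunit that helps bring PRC2 to its targets. B-cell commitment in marrow runs through Ebf1 and Pax5, the factors that set and hold B identity, and through rearrangement of the heavy-chain locus by Rag1, Rag2 and the polymerase Dntt. The first heavy chain is displayed with the surrogate light chain, made of Vpreb1 or Vpreb2 and Igll1, on the signalling pair Cd79a and Cd79b. Surface c-Kit falls as these steps proceed.

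Between 7656 and 10372 barcodes were deposited per library, and cells were kept with at least 1000 UMIs, 500 genes and at most 10% mitochondrial UMIs. The mitochondrial limit was exceeded by 2.82% to 5.82% of barcodes at baseline and by 25.7% to 43.4% after transplantation, and these were left out. Kept cells had a median of 10968 to 13019 UMIs at baseline and 11865 to 17603.5 after transplantation, and B-lineage cells 9727 to 14855. Of the cells in the transplant Control, 59.4% had Xist without any Y-linked UMI, and so did 47.7% and 48.9% in Jarid2 KO but 0.0151% and 0.0475% in Ezh2 KO, so that sex and genotype cannot be told apart across the whole transplant libraries. No pair of libraries shared more than 1 B-lineage barcode.

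Detection of the 6 genes per cell was bimodal: 61064 cells detected none, 10591 detected 1, 1478 detected 2, 415 detected 3, 191 detected 4, 446 detected 5 and 4760 detected all 6. In the class as a whole Pax5 was detected in 75.6% to 92.9% of cells per library and Cd79a in 87.5% to 98.7%. Just outside and just inside the rule, cells with exactly 2 and exactly 3 of the genes made up 0.236% to 5.26% and 0.0429% to 1.15% of kept cells per library.

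**Figure D1:**
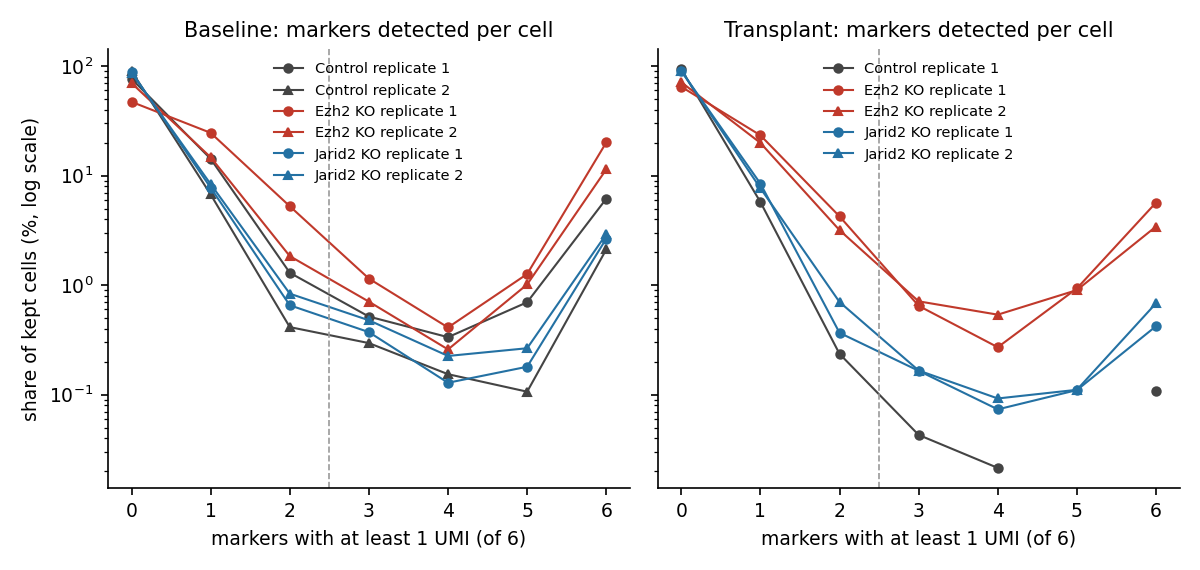
Share of kept cells (percent, log scale) against the number of the 6 rule genes detected, 1 line per library (circles replicate 1, triangles replicate 2), with baseline on the left and transplant on the right and the rule drawn as a dashed line. In most libraries the lines dip at 3 to 5 genes and rise again at 6, where 4760 cells of the 11 libraries lie.

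Ebf1 is the factor that opens the B programme. Its level, in counts per 1000000 UMIs of the class (CPM), was 5056 and 5060 in the male and female baseline Control, 5229 and 4404 in Ezh2 KO, with 4277 and 5120 in Jarid2 KO. After transplantation it was 1914 in the Control, 1378 and 1322 in Ezh2 KO, with 2261 and 1226 in Jarid2 KO. Ebf1 was thus lower in all 5 transplant libraries than in all 6 baseline libraries, with no separation by genotype within either experiment. The experiments differ in age, in transplantation, in staining and in software version, which cannot be told apart.

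Vpreb1 ran from 825 to 2081 CPM over the 11 libraries and Vpreb3 from 780 to 2528 CPM. Igll1 ran from 458 to 1090 CPM, Cd79a from 860 to 1317 CPM and Pax5 from 149 to 453 CPM. CPM is not corrected for gene length, so these ranges compare libraries and not genes. Vpreb1 and Vpreb2 are close copies of each other, and how the authors' counting divided reads between them is not given in the sources used here.

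Vpreb1 and Igll1, which encode parts of the surrogate light chain, are 2 of the 6 rule genes. Neither was detected in 2.85% to 25.0% of the class per library, the highest being 2 of 8 cells in the transplant Control. Both promoters are shown for their count of CG dinucleotides, beside those of 2 genes that were higher without Ezh2 (given below). Each window covers 250 bases before to 50 bases after the RefSeq transcription start (build GRCm38.p6), is written 5′ to 3′ on the gene's strand, and has every CG in capitals. CG reads the same on both strands. Vpreb1 lies at chr16:16869206-16869505 and Igll1 at chr16:16863936-16864235, both on the minus strand.
Vpreb1: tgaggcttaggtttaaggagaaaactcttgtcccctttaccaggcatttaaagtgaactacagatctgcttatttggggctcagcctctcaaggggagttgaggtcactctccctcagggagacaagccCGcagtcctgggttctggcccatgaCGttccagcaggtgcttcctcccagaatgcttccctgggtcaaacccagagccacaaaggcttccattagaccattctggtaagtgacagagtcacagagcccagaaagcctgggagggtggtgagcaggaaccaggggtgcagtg
Igll1: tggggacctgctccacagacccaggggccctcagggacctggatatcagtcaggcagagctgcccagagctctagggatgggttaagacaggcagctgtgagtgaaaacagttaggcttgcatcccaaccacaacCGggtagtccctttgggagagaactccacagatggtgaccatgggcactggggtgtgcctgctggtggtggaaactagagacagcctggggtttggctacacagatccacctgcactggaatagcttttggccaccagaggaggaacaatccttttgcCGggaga
Each window holds 2 CG. Of the other rule genes, the window of Vpreb3 holds 3, that of Cd79a 8 and that of Pax5 23, so that few CG is not a property of the rule genes as a set. Among 32851 RefSeq promoter windows of 27025 genes, the median is 7 CG, 94.6% hold at least 1 and 31.4% hold at most 3.

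The label was checked against genes the rule did not use, as a description, because the class was cut from the same cells. Of 6297 genes with a mean of at least 20 CPM in the class, 1030 were higher than in the other kept cells in all 11 libraries and 823 were lower in all 11. The 20 highest ratios included the other surrogate light chain gene Vpreb2, the recombinase Rag1 (mean 120 against 1.15 CPM), the transcription factor Lef1 (426 against 1.29 CPM) and the octamer coactivator Pou2af1. They also included Gfra2 (164 against 0.379 CPM), Cecr2, Chst3, Akap12, Id3, Tnfrsf19, Bst1, Alpl and Cplx2.

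Genes of the early B stages were detected in a larger share of the class than of other cells in every library. The interleukin-7 receptor gene Il7r was detected in 75.0% to 88.7% of B-lineage cells per library against 3.33% to 10.4% of other cells, and Rag1 in 44.4% to 68.4% against 0.340% to 2.73%. Ighm, the mu heavy chain gene, was detected in 87.5% to 98.2% against 30.3% to 62.1%. Kit, which encodes the c-Kit protein of the gate, was detected in 29.2% to 75.0% of B-lineage cells and in 77.3% to 92.2% of other cells. Mki67, a gene of cycling cells, was detected in 59.0% to 87.5% against 25.6% to 62.5%.

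Genes of other lineages were measured in the class as well, those of granulocytes and monocytes at a higher level after transplantation than at baseline. Summed over 15 cycling genes the class held 4045 to 5032 CPM against 1396 to 2491 CPM in other cells, and over 16 stem and multipotent progenitor genes 464 to 916 CPM against 1078 to 3411 CPM. The 10 granulocyte and monocyte genes summed to 96.7 to 179 CPM at baseline, against 620 to 944 CPM in other cells, and to 2324 to 6410 CPM after transplantation, against 8770 to 17178 CPM. The T-cell gene Cd3e was at 0 in the class in all 11 libraries. Some other genes of its 13-gene T and innate lymphoid list were not, and 5 were tested at baseline. In the class of the male and female baseline Controls, Nkg7 had 316 and 47 UMIs and Tcf7 had 34 and 12. Mpo, a granule enzyme gene, was detected in 93.6% to 100% of transplanted B-lineage cells, and cells carrying at least 3 of 7 megakaryocyte genes met the B rule in 1.48% to 4.14% of cases in the 4 Ezh2 KO libraries and in 0% to 1.42% in the other 7 (95% limit of up to 12.3% for the smallest set). At least 1 rule gene was detected in 23.2% to 42.1% of those cells in Ezh2 KO and in 0% to 15.2% in the other libraries, so this background was highest in Ezh2 KO. Cells marked by their doublet score made up 7.14% to 17.5% of the class and 5.85% to 7.45% of other cells; the part of free RNA and of doublets in the levels was not tested.

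B-lineage cells made up a larger share of kept KSL cells in Ezh2 KO than in Control or Jarid2 KO libraries in both experiments. Shares do not give the number of such cells in the marrow. At baseline the class made up 7.71% of kept cells in the male Control (exact binomial 95% interval 7.10 to 8.35) and 2.67% in the female (2.34 to 3.04). It made up 22.9% (22.1 to 23.8) and 13.4% (12.7 to 14.1) in Ezh2 KO and 3.34% (2.95 to 3.76) and 3.89% (3.46 to 4.35) in Jarid2 KO. Both Ezh2 KO libraries lay above the other 4, and both Jarid2 KO libraries lay between the Controls. Among megakaryocyte-marker cells the rule was met by 1.42% and 0.480% in the Controls, 4.14% and 2.37% in Ezh2 KO, with 0.606% and 0% in Jarid2 KO, and the part of this background in the shares was not tested. These intervals cover counting error only.

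After transplantation the class was 8 cells, 0.172% (0.0741 to 0.338), in the Control. It was 7.53% (6.91 to 8.19) and 5.58% (5.03 to 6.18) in Ezh2 KO, and 0.771% (0.556 to 1.04) and 1.05% (0.798 to 1.36) in Jarid2 KO. The order Ezh2 KO, Jarid2 KO, Control had no overlap between libraries. The rule was met by 1.48% and 3.51% of megakaryocyte-marker cells in Ezh2 KO and by none of 65 in the Control and none of 45 and 28 in Jarid2 KO.

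**Figure D2:**
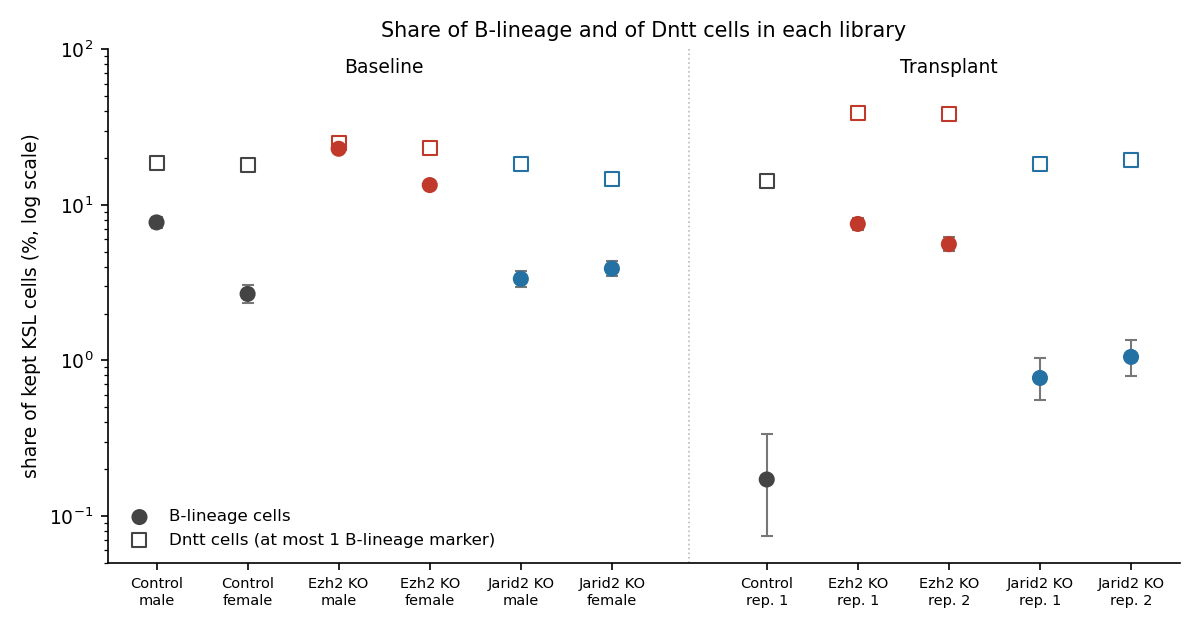
Share of kept cells (percent, log scale) in each library: filled circles are B-lineage cells with exact binomial 95% intervals, open squares are Dntt cells with at most 1 rule gene, coloured by genotype. B-lineage cells reach 22.9% and 13.4% in baseline and 7.53% and 5.58% in transplant Ezh2 KO, above every Control and Jarid2 KO library of the same experiment.

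The geometric mean share was 3.86-fold higher in Ezh2 KO than in Control at baseline, 2.97-fold in males and 5.01-fold in females, and 37.8-fold higher after transplantation. With 2 libraries against 2, or 2 against 1, the smallest p an exact two-sided permutation test allows is 0.333, and each of these comparisons gave it. Permuted within experiment over both, Ezh2 KO against Control gave 12.1-fold and an exact p of 0.0556 (0.0833 after Benjamini-Hochberg adjustment over 3 contrasts), the smallest possible for that contrast. Jarid2 KO against Control was 0.794-fold at baseline with overlapping libraries (exact permutation p = 1), 0.433-fold in males and 1.45-fold in females, and 5.25-fold after transplantation. The baseline value turned to 1.35-fold without the male Control.

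The transplant comparison rests on 8 Control cells. With cells of at least 1 Y-linked and no Xist UMI only, the transplant shares were 0.118% in the Control, 6.93% and 5.00% in Ezh2 KO, with 0.757% and 0.467% in Jarid2 KO. Here the Control share is 1 cell of 844 and the Jarid2 KO shares are 11 and 8 cells. With every cell thinned to 5000 UMIs they were 0.150%, 6.37% and 4.04%, and 0.476% and 0.764%.

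B-lineage cells were also set against the step before them. Dntt cells were defined as kept cells with at least 2 Dntt UMIs and at most 1 rule gene. They made up 18.6% and 18.0% of kept cells in baseline Control, 25.0% and 23.1% in Ezh2 KO, with 18.3% and 14.6% in Jarid2 KO. After transplantation they made up 14.1% in the Control, 38.7% and 38.6% in Ezh2 KO, with 18.2% and 19.3% in Jarid2 KO.

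Per 100 Dntt cells there were 41.4 and 14.9 B-lineage cells in baseline Control, 91.8 and 57.9 in Ezh2 KO, with 18.3 and 26.7 in Jarid2 KO. After transplantation there were 1.21 in the Control, 19.4 and 14.5 in Ezh2 KO, with 4.23 and 5.45 in Jarid2 KO. In each experiment the ratio of both Ezh2 KO libraries exceeded that of every Control and Jarid2 KO library (exact permutation p = 0.333 in each, the smallest possible). Within every genotype it was lower after transplantation than at baseline in every library.

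Surface protein, which the rule did not use, was read in the 6 baseline libraries with 6 antibodies. Against other cells, B-lineage cells carried little c-Kit (CD117) and much CD48, an adhesion receptor of committed progenitors. The median CD117 count was 59 to 103 antibody UMIs per B-lineage cell, against 172 to 240 on Dntt cells and 212 to 294 on other cells, and the range of B-lineage cells lay below the other 2, which overlapped. Between 60.3% and 86.3% of B-lineage cells fell under the 10th percentile of the other cells of their library. As a share of a cell's antibody UMIs, CD117 was 4.13% ± 0.790 (SD, n = 6) in the class and 15.6% ± 3.54 in other cells, lower in 6 of 6 libraries (exact sign-flip permutation test, p = 0.03125, the smallest 6 libraries allow, and 0.03125 after adjustment over 6 antibodies).

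The median CD48 count was 1529 to 2395 in the class, 1011.5 to 2080 on Dntt cells and 401 to 1291 on other cells. In Ezh2 KO it was lower in the class than on Dntt cells, with 1941 against 2080 in the male and 1529 against 1931 in the female. In the Control and Jarid2 KO libraries it was higher in the class than on Dntt cells. The CD48 share was 74.1% ± 4.09 against 44.1% ± 7.77 in other cells (n = 6), higher in 6 of 6 libraries at the same exact p. CD201 (endothelial protein C receptor, a stem-cell marker) had median counts of 22 to 36 against 46 to 71. On Dntt cells it had 30 to 47, which overlaps the range of the class. CD135 (Flt3) had 13 to 27.5 against 27 to 60, and 84 to 138 on Dntt cells, and was thus lower on B-lineage cells than on the lymphoid-primed Dntt cells in all 6 libraries.

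Shares of a fixed total move together, and the sign for Sca1 depended on the scale. Sca1, read through a biotin and streptavidin tag, had median counts of 331 to 426 in the class against 376 to 454, a ratio of 0.811 to 1.02, while its share was 17.7% ± 2.91 against 29.2% ± 3.39 (n = 6, exact permutation p = 0.03125). As log2 count per 1000 RNA UMIs, Sca1 was 0.06 higher in the class (exact permutation p = 0.656). CD150 shares were 0.993% ± 0.314 against 3.05% ± 0.418, with count ratios from 0.667 to 1.43. Transplant libraries held 225 to 366 antibody UMIs each and give no surface values.

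**Figure D3:**
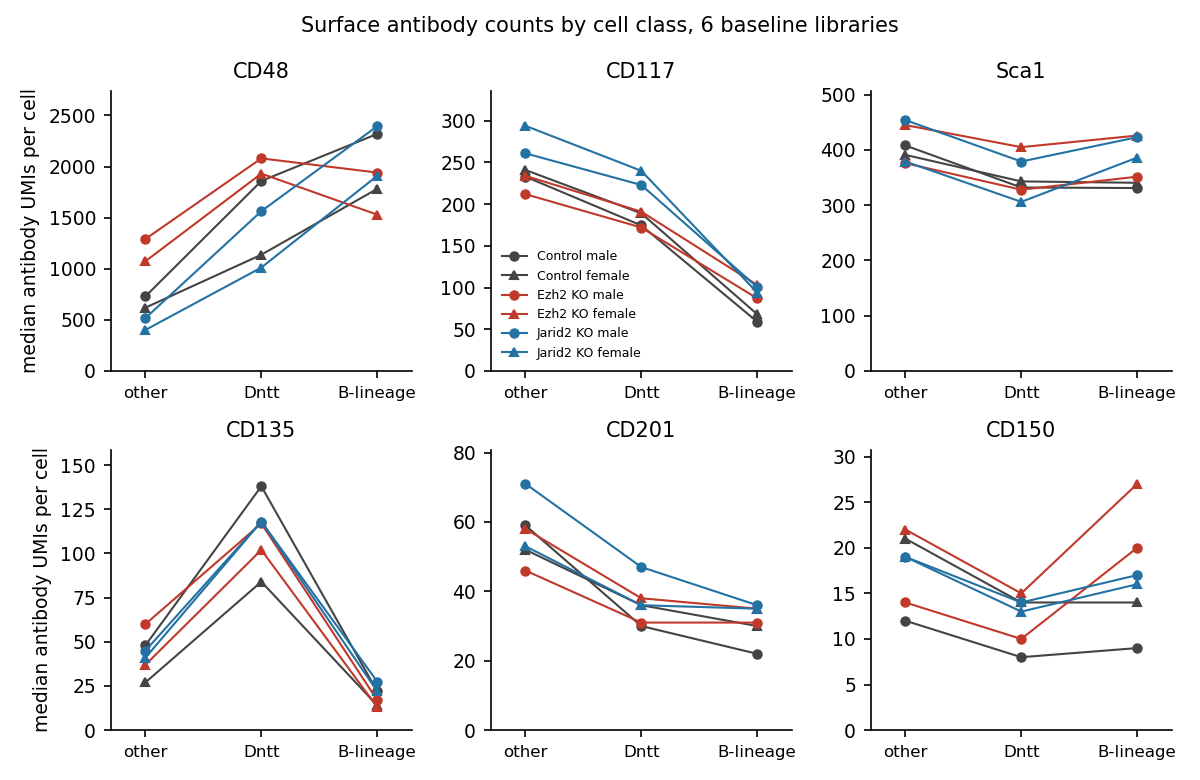
Median antibody UMIs per cell for 6 surface proteins in other cells, Dntt cells and B-lineage cells, 1 line per baseline library (circles male, triangles female, coloured by genotype). CD117 falls to 59 to 103 in B-lineage cells in all 6 libraries. CD48, at 1529 to 2395, lies above other cells in all 6 and below Dntt cells in both Ezh2 KO libraries.

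To compare genotypes inside the class, UMIs were summed over the B-lineage cells of each library, and edgeR's quasi-likelihood test was run over all genes with a false discovery rate (FDR) of 0.05. The baseline fit held genotype and sex. The transplant fit left out the Control, whose 8 cells were under the minimum of 10, so that only Jarid2 KO against Ezh2 KO was tested there. Another fit joined both experiments and held genotype and experiment, with no sex term. Gene lists below were chosen with earlier results of these data known.

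The targeted genes were checked first. In the 8-cell transplant Control, which held 87245 UMIs in the class, a count of 0 allows up to 34.4 CPM. Ezh2 stood at 528 and 526 CPM in the baseline Controls, 268 and 243 in Ezh2 KO, with 509 and 487 in Jarid2 KO, and after transplantation at 310 in the Control, 70.7 and 97.2 in Ezh2 KO, with 399 and 446 in Jarid2 KO. Both Ezh2 KO libraries were lowest in each experiment (baseline log2 change -1.0, SE 0.08, FDR 4.36e-05). Transcripts counted by gene need not lose the deleted exons, so a remaining level does not measure deletion. Jarid2 stood at 123 and 118 CPM in baseline Controls, 113 and 120 in Ezh2 KO, with 138 and 128 in Jarid2 KO, and at 51.5 and 59.1 in transplant Jarid2 KO against 45.9 in the Control. Jarid2 counts were thus not lower in the libraries labelled Jarid2 KO, and they do not check that label.

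At baseline 820 of 12423 genes differed between Ezh2 KO and Control B-lineage cells (6.6% called), 661 higher (5.32%) and 159 lower (1.28%). These counts include genes that passed the low-count filter only through Ezh2 KO, such as Cdkn2a, Cdkn2b and Lin28b. Their number is not given here. Over all genes 2457 had an unadjusted p under 0.05. Genes of the rule are left out of the lists counted here. Of 16 B-lineage transcription factors, 1 rose (Bcl11a, 0.49 on the log2 scale) and 1 fell (Ets1, -0.39), with 6 at an unadjusted p under 0.05 and a median of -0.01 against 0.00 over all genes tested. Of 12 recombination genes, Rag1 (-0.44) and Dntt (-0.38) fell, with 4 at an unadjusted p under 0.05. Of 12 receptor components Vpreb2 rose (0.37) and Blk fell, with 4 at an unadjusted p under 0.05. None of 15 cycling genes passed edgeR's test (median -0.07), and 2 had an unadjusted p under 0.05.

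Cdkn2a stood highest in the Ezh2 KO libraries. This cell-cycle inhibitor gene, which encodes p16Ink4a and p19Arf, stood at 1.65 and 1.59 CPM in the Controls, 41.6 and 69.5 in Ezh2 KO, with 0.973 and 0.815 in Jarid2 KO. It stood at 0 in the transplant Control and in both transplant Jarid2 KO libraries, and at 51.5 and 51.8 in transplant Ezh2 KO. With 13 and 4 UMIs in the Controls, Cdkn2a passed the low-count filter only through the Ezh2 KO libraries, so its levels are given as a description with no test. Every Ezh2 KO library lay above every other library. In other kept cells Cdkn2a stayed between 0.0101 and 0.390 CPM. Cdkn2a was detected in 28.1% and 40.1% of baseline Ezh2 KO B-lineage cells against 2.17% and 1.77% in Controls.

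Of the 5 other cell-cycle inhibitors that did not depend on Ezh2 KO to pass the filter, Cdkn1c (1.93) and Cdkn2c (0.43) rose and none fell. Cdkn2b, the neighbour of Cdkn2a, passed only through Ezh2 KO, with 1 and 2 UMIs in the Controls and 2.80 and 3.76 CPM in Ezh2 KO. Bmi1, a subunit of Polycomb repressive complex 1 known to repress the Cdkn2a locus, rose. It stood at 18.2 and 17.5 CPM in the Controls, 52.0 and 51.8 in Ezh2 KO, with 17.8 and 18.2 in Jarid2 KO (1.57, SE 0.11, FDR 1.98e-05), and at 68.9 and 66.2 in transplant Ezh2 KO against 21.5 and 22.0 in Jarid2 KO. Other kept cells of Ezh2 KO also held more Bmi1, with 18.9 and 19 CPM in the baseline Controls, 27.5 and 29.5 in Ezh2 KO, with 20 and 19.6 in Jarid2 KO, and after transplantation 16.7 in the Control, 48.2 and 45.9 in Ezh2 KO, with 16.7 and 21 in Jarid2 KO. The rise was larger in B-lineage cells (interaction 0.93, SE 0.15, edgeR FDR 0.00027). Bmi1, Ezh2 and Mtf2 (-0.38), an accessory subunit of PRC2, were the only called genes of 17 Polycomb genes.

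The promoters of both genes are shown for their CG content, in the same form as above. Cdkn2a has more than 1 RefSeq start, and the window shown lies at chr4:89294570-89294869 on the minus strand, that of Bmi1 at chr2:18676768-18677067 on the plus strand.
Cdkn2a: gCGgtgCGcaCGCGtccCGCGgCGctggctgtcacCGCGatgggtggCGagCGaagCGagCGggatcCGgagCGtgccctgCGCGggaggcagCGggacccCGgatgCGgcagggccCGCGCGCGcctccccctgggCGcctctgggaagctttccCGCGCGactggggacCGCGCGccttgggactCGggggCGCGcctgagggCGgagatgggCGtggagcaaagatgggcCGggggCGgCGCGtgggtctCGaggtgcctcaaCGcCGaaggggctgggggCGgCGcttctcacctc
Bmi1: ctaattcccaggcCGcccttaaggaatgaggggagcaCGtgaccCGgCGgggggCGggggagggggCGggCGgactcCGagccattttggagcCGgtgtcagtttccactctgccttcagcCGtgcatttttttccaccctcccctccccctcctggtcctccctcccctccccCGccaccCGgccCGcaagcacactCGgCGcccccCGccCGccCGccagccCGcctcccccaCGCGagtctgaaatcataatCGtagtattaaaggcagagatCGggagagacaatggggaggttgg
The Cdkn2a window holds 45 CG and the Bmi1 window 23, and 3.91% of all windows hold at least 40. A second Cdkn2a window, at chr4:89282143-89282442, holds 12. Counts per gene do not say which start was used.

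Of 6 fetal and growth genes that did not depend on Ezh2 KO to pass the filter, 3 rose and none fell. Igf2bp3, an RNA-binding protein of fetal blood, stood at 21.7 and 16.3 CPM in the Controls, 56.0 and 65.2 in Ezh2 KO, with 32.4 and 30.2 in Jarid2 KO (1.63, SE 0.14, FDR 7.64e-05). Lin28b, the fetal regulator of let-7, passed only through Ezh2 KO, with 1 and 2 UMIs in the Controls and 2.33 and 8.73 CPM in Ezh2 KO. Hmga2 (1.68) stood at 12.3 and 5.16 CPM in the Controls and 31.7 and 31.8 in Ezh2 KO, and it was also higher in other Ezh2 KO cells (39.6 and 45.1 CPM against 124 and 123), and the difference between the classes did not pass the test (interaction 0.08, FDR 0.963). Igf1r, the growth factor receptor, rose by 0.88.

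The called genes with the largest rise and a mean of at least 20 CPM included Bex4 (3.66), Prlr (2.89), Pbx3 (2.84), Ptprm (2.80), Bex1 (2.63), Sdk1 (2.14), Pcdh9 (2.07), Cdc42bpa (2.03) and Mt1 (2.01). Prlr, the prolactin receptor, stood at 8.86 and 12.3 CPM in the Controls, 71.5 and 74.5 in Ezh2 KO, with 13.1 and 27.5 in Jarid2 KO, and at 25.1 and 27 in transplant Ezh2 KO. In other kept cells Prlr was between 0.0273 and 1.32 CPM in every library. Bex4 stood at 2.53 and 7.94 CPM in the Controls and 44.8 and 58.2 in Ezh2 KO, and at 57.4 and 47.7 in transplant Ezh2 KO with no UMI in transplant Jarid2 KO, which makes it at least 21.5-fold higher there (against 3 counts over both Jarid2 KO libraries). Pbx3, a homeodomain cofactor, stood at 16.7 and 23.4 CPM in the Controls and 136 and 121 in Ezh2 KO.

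Of these genes Pcdh9 did not pass the test of a difference from the change in other cells (interaction 0.81, SE 0.73, FDR 0.774), and the others named rose more in B-lineage cells than in other cells (1.45 to 3.07, edgeR FDR 1.45e-08 to 0.00271). With limma-voom Ptprm (FDR 0.0637) and Mt1 (FDR 0.189) did not pass that test. The genes had been chosen by their rise in B-lineage cells of the same libraries, which favours this outcome. Sdk1 differed in level between the experiments, with 149 and 145 CPM in baseline Ezh2 KO and 2.78 and 3.44 in transplant Ezh2 KO. Ptprm behaved alike, with 42.1 and 52.0 CPM at baseline and 2.42 and 1.83 after transplantation.

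Blk, a Src-family kinase of B-cell receptor signalling, fell. It stood at 41.9 and 44.5 CPM in the Controls, 15.7 and 11.2 in Ezh2 KO, with 31.6 and 38.6 in Jarid2 KO, and at 5.21 and 5.27 in transplant Ezh2 KO against 19.3 and 27.5 in Jarid2 KO (baseline -1.60, SE 0.16, FDR 0.000231). Ezh2 KO libraries were the lowest of each experiment. Of 10 mature B genes 5 were called lower at baseline and none higher, with a median of -0.75. They were Fcmr, the IgM Fc receptor (-2.49), Cd2, and the antigen-presentation genes Cd74 (-1.43), H2-Aa (-1.38) and H2-Ab1 (-0.53). Cd2 passed the low-count filter only through Jarid2 KO, so its value (-2.34) is a description and its call is not used as a test. Cd74 varied between sexes as well as genotypes, with 69.0 and 335 CPM in the Controls, 38.7 and 83.7 in Ezh2 KO, with 238 and 411 in Jarid2 KO. Other genes that fell were the progesterone receptor Pgr (-1.40), Tspan2 (-1.12), Atp8b4 (-1.12), Ly86 (-1.08) and Gimap4 (-1.02).

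Of 12 genes of interleukin-7 receptor signalling, 2 feedback genes rose, Cish (1.45) and Socs2 (1.08), and none fell. Cish stood at 6.20 and 5.56 CPM in the Controls and 13.2 and 22.4 in Ezh2 KO. Il7r itself stood at 265 and 258 CPM in the Controls and 329 and 291 in Ezh2 KO and did not pass the test. Of 16 stem and progenitor genes 5 rose, Hlf (0.62), Ly6a (0.57), Mecom (0.52), Kit (0.46) and Cd34 (0.40), with a list median of 0.42.

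Genes of other lineages moved with these. Ctsg (1.37) and Mpo (0.71) rose among 5 granulocyte genes tested, and Car1 (3.16) and Car2 (0.51) among 4 erythroid genes. The granulocyte list summed to 120 to 136 CPM in the Controls, 145 to 179 in Ezh2 KO and 96.7 to 98.3 in Jarid2 KO. With cells marked as doublets removed, Cd34 turned to -0.23 and Mpo to -0.06. The part of doublets and free RNA in the rise of the stem-cell genes was not tested further.

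**Figure D4:**
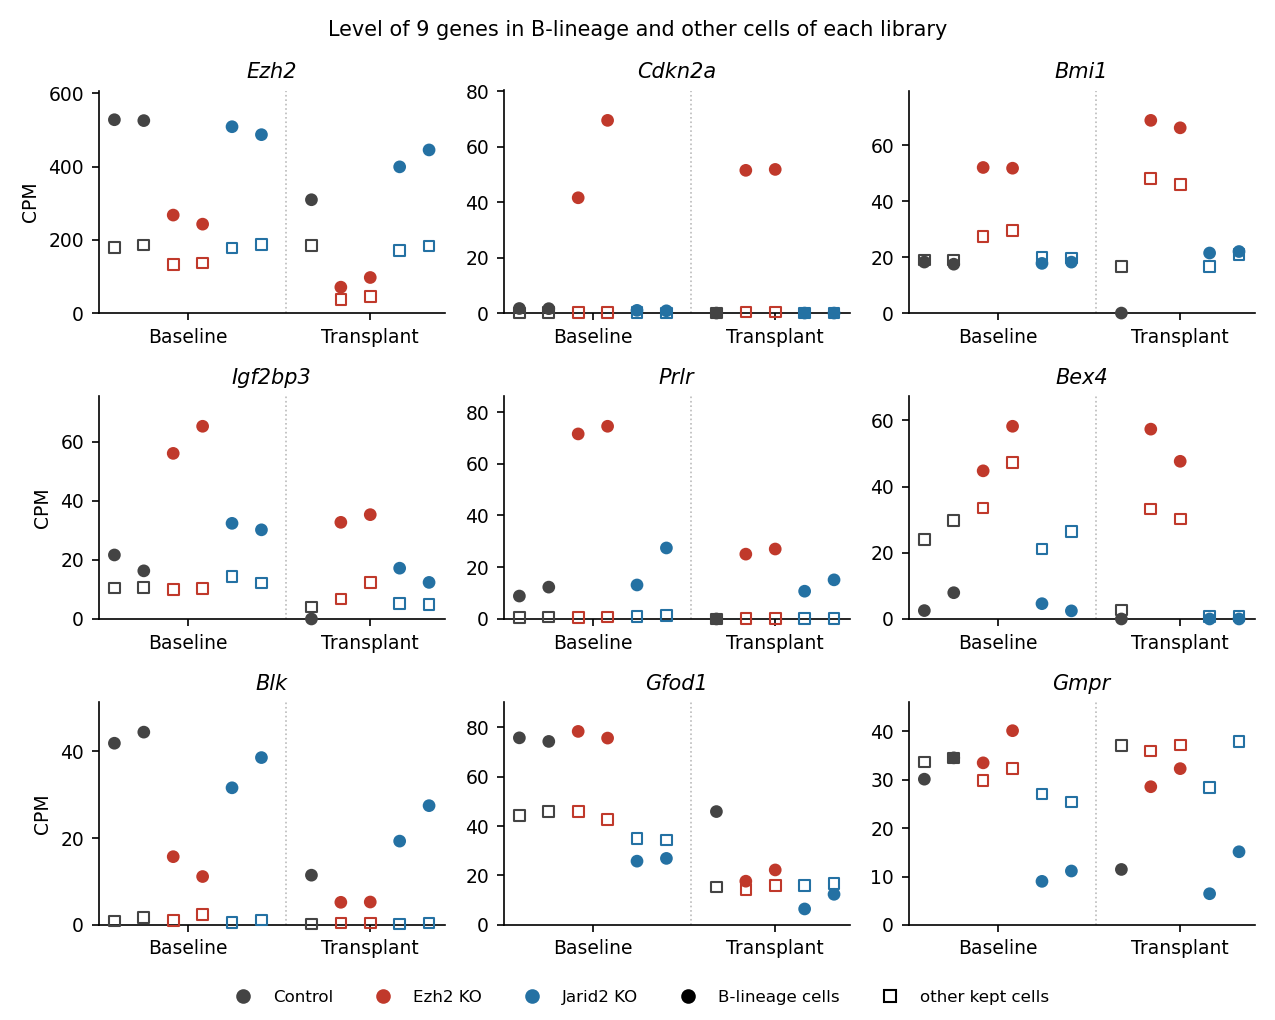
Level in CPM of 9 genes in B-lineage cells (filled circles) and other kept cells (open squares) of each library, coloured by genotype, baseline left and transplant right. In B-lineage cells Ezh2 KO libraries stand apart for Cdkn2a (41.6 to 69.5 CPM), Bmi1, Bex4 and Blk, and Jarid2 KO libraries lie lowest for Gfod1 and Gmpr at baseline and for Gfod1 after transplantation.

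Over both experiments 420 of 12210 genes differed between Ezh2 KO and Control (3.44% called), 376 higher (3.08%) and 44 lower (0.36%), with Bex4 (3.74), Prlr (2.87) and Pbx3 (2.84) again among the largest rises and Blk (-1.68) the largest fall of called genes with a mean of at least 20 CPM. Below that level Fcmr fell by 3.02 (edgeR FDR 0.0218). This fit shares its baseline libraries with the one above and is no separate evidence. Here 1 of 10 mature B genes fell in place of 5 (Cd2 counted among the 5), and 7 had an unadjusted p under 0.05. None of 16 stem and progenitor genes was called by edgeR, 6 of them with an unadjusted p under 0.05, and their median was 0.44. Ptms, a parathymosin gene, joined the list at 1.98. It stood at 27 and 27 CPM in the baseline Controls, 97.7 and 108 in Ezh2 KO, with 33.8 and 31.8 in Jarid2 KO.

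Jarid2 KO B-lineage cells differed from Control in 28 of 12423 genes at baseline (0.225% called), 23 higher (0.185%) and 5 lower (0.0402%). Immunoglobulin genes led the rise: Igkc (1.91), Ighm (1.87), Iglc3 (1.83), Jchain (1.53) and Igha (1.39), with the plasma-cell factor Xbp1 (1.17) and Ckap4, Glcci1 and Ly6a (0.89 to 1.01). Few cells carried most of the Igkc, Ighm, Jchain and Igha UMIs in Jarid2 KO (given below). With at least 4 of the 6 rule genes required, 4 genes were called in place of 28. Ighm was then 0.21, Iglc3 0.36 and Xbp1 0.48, while Igkc was 4.02, Jchain 5.08 and Igha 6.60, and none of these 6 passed edgeR's test (FDR 0.267 to 0.943). Against Ezh2 KO the same setting turned Igkc to -1.26 and Jchain to -1.10. None of 16 B-lineage transcription factors outside the rule passed edgeR's test, 4 of them with an unadjusted p under 0.05, nor did any of 12 recombination or 12 interleukin-7 genes, 1 each at an unadjusted p under 0.05. None of 7 cell-cycle inhibitors, 15 cycling genes and 17 Polycomb genes passed it or reached an unadjusted p under 0.05. Other kept cells held more immunoglobulin transcripts in Jarid2 KO too: the 7 constant genes summed to 3386 and 2612 CPM in Controls and 4483 and 6086 in Jarid2 KO. By edgeR's interaction term, the rise in B-lineage cells did not pass as different from that in other cells for Igkc, Ighm, Iglc3, Jchain or Igha (FDR 0.170 to 1). Airn, a noncoding RNA that runs antisense to the imprinted Igf2r gene, rose by 1.58, and it was also higher in the other Jarid2 KO cells (46.6 and 46.5 CPM in Controls, 94.1 and 126 in Jarid2 KO).

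Most light-chain UMIs came from few cells. B-lineage cells in which light-chain genes made up at least 1% of UMIs numbered 11 and 10 in the baseline Controls (1.99% and 4.42% of the class), 33 and 52 in Ezh2 KO (1.52% and 3.87%) and 21 and 27 in Jarid2 KO (8.08% and 9.22%). After transplantation they numbered 0 in the Control and in both Ezh2 KO libraries, and 4 and 4 in Jarid2 KO (9.52% and 7.02%). In the libraries that had them, they held 97.2% to 99.7% of all light-chain UMIs of the class. Both Jarid2 KO libraries of an experiment thus had the highest share of the class, while by number baseline Ezh2 KO had the most. Other kept cells held such cells too. At baseline they made up 0.499% and 0.620% of other cells in the Controls, 0.273% and 0.552% in Ezh2 KO, with 0.678% and 1.27% in Jarid2 KO.

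Ighm stood at 624 and 1309 CPM in the baseline Controls, 812 and 930 in Ezh2 KO, with 2928 and 3440 in Jarid2 KO. Without the light-chain-rich cells, an alternative chosen after seeing the data, it stood at 621 and 654, 679 and 644, and 587 and 622. The Ighm difference between Jarid2 KO and Control became -0.04 (edgeR FDR 0.972) and that of Xbp1 0.31 (FDR 0.742), and 5 genes were called in place of 28. Neither gene passed the test in the remaining cells. The cells were chosen by their light-chain UMIs, so the fall of Igkc without them is fixed by that choice and no test of it is given. Jchain and Igha did not enter that choice. Over the baseline libraries Jchain stood at 1131 to 4141 CPM with those cells and at 3.22 to 16.4 without them. Igha stood at 1087 to 2977 CPM with them and 0.819 to 24.8 without. Igha then stayed higher in Jarid2 KO (9.83 and 16.6) than in the Controls (1.55 and 0.819). Most of the baseline level of both genes thus came from those cells.

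**Figure D5:**
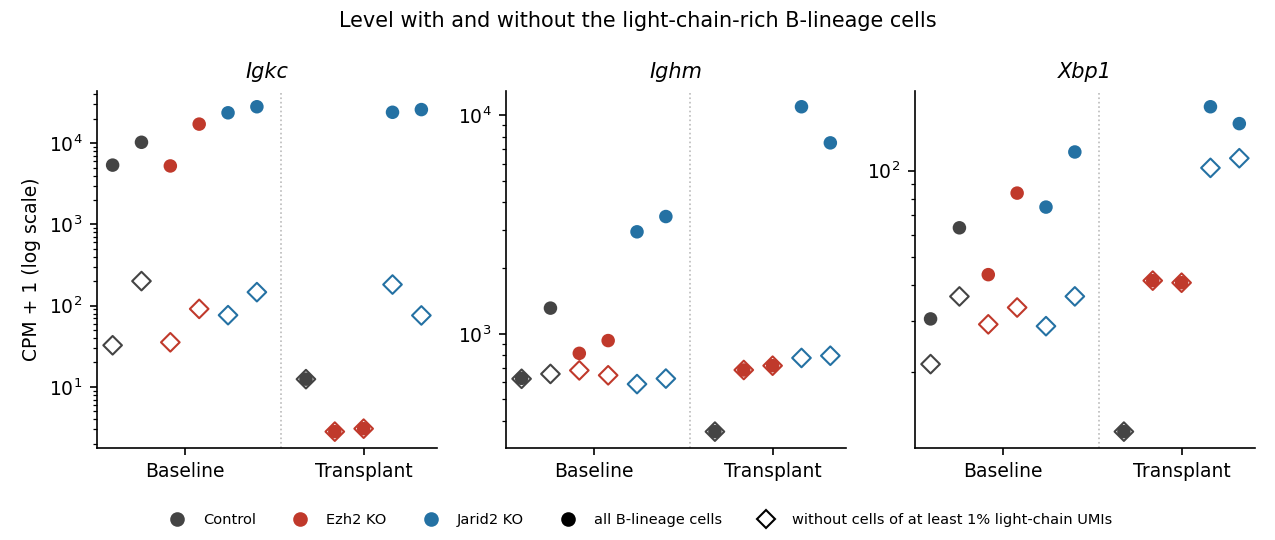
CPM + 1 (log scale) of Igkc, Ighm and Xbp1 in the B-lineage cells of each library, with all cells (filled circles) and without cells of at least 1% light-chain UMIs (open diamonds), coloured by genotype. Ighm falls from 2928 and 3440 to 587 and 622 CPM in baseline Jarid2 KO and is then level with the Controls.

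Gfod1 and Gmpr fell in Jarid2 KO and did not depend on those cells. Gfod1, an oxidoreductase-domain gene, stood at 75.7 and 74.2 CPM in the baseline Controls, 78.3 and 75.6 in Ezh2 KO, with 25.8 and 26.9 in Jarid2 KO, and after transplantation at 45.9 in the Control, 17.7 and 22.2 in Ezh2 KO, with 6.44 and 12.4 in Jarid2 KO. Gmpr, guanosine monophosphate reductase of purine metabolism, stood at 30.1 and 34.5, 33.5 and 40.2, and 9.0 and 11.1 CPM at baseline, and at 11.5, 28.6 and 32.3, and 6.44 and 15.1 after transplantation. Jarid2 KO was lowest for both genes at baseline, and for Gfod1 after transplantation. Gmpr in the transplant Control, measured on 8 cells, lay between the Jarid2 KO libraries.

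The baseline changes were -1.44 for Gfod1 (SE 0.11, FDR 0.000618) and -1.62 for Gmpr (SE 0.15, FDR 0.00145), and without the light-chain-rich cells -1.39 (FDR 0.000523) and -1.61 (FDR 0.00237). Other kept cells changed less, with Gfod1 at 44.4 and 45.8 CPM in Controls and 34.9 and 34.4 in Jarid2 KO, and the interactions were -1.11 (edgeR FDR 0.000422) and -1.23 (edgeR FDR 0.00142). With limma-voom neither passed (FDR 0.254 and 0.629), and no gene was called for the Jarid2 KO interaction in place of 13. With at least 4 of the 6 rule genes both kept their baseline calls (-1.45, edgeR FDR 0.000367, and -1.72, FDR 0.00194). Over both experiments 3 of 12210 genes were called (0.0246% called), 1 higher (0.00819%) and 2 lower (0.0164%), Gfod1 (-1.40, FDR 0.0012) and Gmpr (-1.53, FDR 0.00976). That joint fit held no sex term, and more genes were called with one (given below). At baseline Gmpr was not called without the sex term (edgeR FDR 0.105). Over both experiments Gmpr was not called without either baseline Jarid2 KO library (edgeR FDR 0.0606 male, 0.121 female), nor without either baseline Control.

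Both genes lie beside Jarid2 on chromosome 13. Jarid2 spans chr13:44730774-44921643, Gfod1 chr13:43195240-43304172 and, on the other side, Gmpr chr13:45507428-45546386, by the GRCm38.p6 annotation. Between lower coordinates, Gfod1 lies 1.54 Mb and Gmpr 0.777 Mb from Jarid2. Of 22 tested neighbours within 3 Mb of Jarid2, these 2 were lower in Jarid2 KO and none was higher, beside 0.225% called over all genes. In Ezh2 KO 1 of the 22 was called (Rnf144b, 1.37), beside 6.6% over all genes. Of 32 tested neighbours within 3 Mb of Ezh2, 4 were called in Ezh2 KO, beside the same 6.6%: Igf2bp3 (1.63) and Tmem176a (0.37) higher, Gimap4 (-1.02) and Gimap7 (-0.57) lower. The nearness of these genes to the floxed alleles and the loss of the targeted proteins cannot be told apart in these libraries.

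Jarid2 KO against Ezh2 KO is the contrast that both experiments hold with replicates. At baseline 828 genes differed (6.67% called), 207 higher (1.67%) and 621 lower (5%) in Jarid2 KO, and after transplantation 179 of 10266 (1.74% called), 82 higher (0.799%) and 97 lower (0.945%). Over both experiments 653 of 12210 differed (5.35% called), 131 higher (1.07%) and 522 lower (4.28%). The experiments share no library. Of 10203 genes tested in both, 612 and 177 were called and 116 in both, which is 19% of the baseline and 65.5% of the transplant calls. Of the 116, 114 had the same direction, 36 higher and 78 lower in Jarid2 KO, and of the 612 baseline calls 545 had the same sign after transplantation.

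Of the 828 baseline calls 151 passed the low-count filter only through 1 group, and of the 179 transplant calls 67 did. Of the 116 genes called in both experiments 48 passed it so in one experiment or the other. Among the other 68, 22 were higher in Jarid2 KO in both, 44 lower in both, and 2 differed in direction. Bmi1 differed by -1.50 at baseline and -1.66 after transplantation on the log2 scale, lower in Jarid2 KO. Blk differed by 1.39 and 2.16, and Ezh2 by 0.99 and 2.33. After transplantation Blk lost its call without either Ezh2 KO library or without the second Jarid2 KO library (values 1.92 to 2.18). Bex1, Pbx3 and Cdkn1c differed by -2.86, -2.88 and -1.74 at baseline. They passed the transplant filter only through Ezh2 KO, so their transplant values are a description with no test. Jarid2 KO held 1, 2 and 2 UMIs of them in all, and the ratio of Ezh2 KO to Jarid2 KO was 60 (95% counting interval 10.7 to 2374), 27.1 (7.46 to 224) and 14.2 (3.9 to 118). Cdkn2a, also with no test, had no UMI in transplant Jarid2 KO and was at least 20.5-fold higher in Ezh2 KO, against 3 counts over both Jarid2 KO libraries.

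Other genes lower in transplant Jarid2 KO were the linker histone genes H1fx (-3.88), with 81.0 and 63.9 CPM in Ezh2 KO against 6.44 and 4.13, and H1f0 (-2.63), the ribonuclease-family gene Rnase12 (-2.99), the alkaline phosphatase gene Alpl (-2.83) and Smo, the Hedgehog signal transducer (-2.29). Ighm was higher (3.73). Xist and Tsix were also among the largest rises in Jarid2 KO, and sex and genotype cannot be told apart in the transplant libraries. Ms4a1, the CD20 gene, and Sdc1, the CD138 gene, passed the low-count filter only through Jarid2 KO, so their levels are given as a description with no test. Without the 4 and 4 light-chain-rich cells of the Jarid2 KO libraries, 104 genes were called in place of 179. Ighm then stood at 774 and 792 CPM in Jarid2 KO in place of 10952 and 7482, against 681 and 713 in Ezh2 KO. Ms4a1 stood at 32.9 and 1.5 CPM in place of 51.5 and 39.9, against 3.27 and 3.21 in Ezh2 KO. Sdc1 stood at 35.3 and 27 CPM in place of 42.9 and 33.0, against 1.82 and 4.35 in Ezh2 KO. Ighm thus depended on those cells in both libraries, Ms4a1 in 1, and Sdc1 stayed above Ezh2 KO in both.

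The response to Ezh2 loss differed between B-lineage and other cells of the same libraries in 616 of 18532 genes (3.32% called), 514 with a more positive change in B-lineage cells and 102 with a more negative one. For Jarid2 KO 13 genes differed (0.0701% called), 8 and 5. Both classes come from the same libraries, and the 10 libraries with enough B-lineage cells of both experiments entered the fit. Against Dntt cells alone as the comparator, the number of genes for Ezh2 KO was 287.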

How the data were processed

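Droplet gene-expression libraries of 11 KSL samples were analysed, with antibody counts of 6. The authors deposited raw UMI counts per feature and barcode (32285 genes), and all values were whole numbers. Cell Ranger made them, in version 7.2.0 for the baseline libraries and 6.1.2 for the transplant libraries, per the file headers. The submitters' processing notes name Cell Ranger 3.1.0, Seurat 3.0, Partek and mm10. How strand and introns were handled is not given in the sources used here. Every count column was mapped to a sample (0 unmapped).

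Cells were kept and chosen by the rules in the report. The rule, the members and the gene lists were chosen with earlier results of these data known. Doublet scores came from Scrublet (scanpy 1.11.5), marking the highest scores up to 0.8% per 1000 barcodes. Marked cells stayed in the main values. UMIs were summed over the class in each library with at least 10 such cells and tested with edgeR 4.0.16 (quasi-likelihood, TMM, filterByExpr, two-sided, R 4.3.3). DESeq2 1.42.0 and limma 3.58.1 were alternatives. Only gene-level UMI counts were used, and library totals in the class ran from 87245 to 31397322 UMIs, so that the transplant Jarid2 KO libraries (465770 and 727311) are the least precise of those tested.

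Labels tie the replicate number to sex at baseline, and same-numbered libraries deviated together (r = 0.584, 0.611 and 0.608 over genes for the 3 pairs of groups), so the baseline fit held sex. Shares were compared with exact permutation tests, antibody shares with exact sign-flip tests (scipy 1.17.1). On simulated counts at baseline, for Ezh2 KO against Control on 12169 genes, 91% of 2-fold and 100% of 4-fold changes were recovered with 2 false calls. After transplantation, for Jarid2 KO against Ezh2 KO on 10022 genes, 60% and 99% were recovered with 7 false calls. These rates hold for the simulated counts only. Whether they carry over to the real libraries, and to genes with few counts there, was not tested.

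Genes named are the 6 rule genes, Ezh2, Jarid2, the listed genes (up to 4 examples per list, all where a list's called genes are named) and, per contrast, up to 10 genes each way with the largest change among those called, with a mean of at least 20 CPM and groups that do not overlap. Some called genes of the rule are left out for length or are not reported here. The Sdk1, Ptprm and Jarid2-neighbour descriptions, the light-chain-rich cells and the neighbour windows of 3 Mb were chosen after values were seen.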

Additional observations from a re-analysis of the deposited data

Results flagged for a closer look

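The Ezh2 KO effect differed between B-lineage and other cells of the same libraries, by edgeR's interaction term, for most of the named genes with the largest baseline change. As extra log2 change in B-lineage cells it was 3.07 for Bex4, 2.73 for Prlr, 2.50 for Ptprm, 2.38 for Bex1, 1.86 for Pbx3, 1.84 for Cdc42bpa, 1.70 for Mt1 and 1.45 for Sdk1. It was -2.04 for Blk, -1.64 for Pgr, -1.18 for Gpat3, -1.16 for Tspan2, -1.15 for Gimap4, -1.08 for Ly86, -0.92 for Atp8b4, -0.48 for Ezh2 itself and -0.43 for Hist1h4c. Of these 17 genes 9 also passed with limma-voom. They were named for their change in B-lineage cells of the same libraries, which favours a larger change there. Their number is thus no separate support, and 3.32% were called over all genes. By edgeR's interaction term the Jarid2 KO effect differed for Xbp1 (1.17), Gfod1 (-1.11) and Gmpr (-1.23). With limma-voom none of the 3 passed, and no gene was called for Jarid2 KO in place of 13. For Xbp1 the light-chain-rich cells of the class differ in number between the same groups, and their part in the interaction was not tested.

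The transplant libraries, which the labels do not describe as antibody-stained, list antibody features with a few UMIs: 225 in the Control, 269 and 366 in Ezh2 KO, with 272 and 313 in Jarid2 KO. The 6 stained baseline libraries held 14330271 to 25234137 antibody UMIs each.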

How the results depend on the processing

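Among values of single named genes, 3065 kept direction and call, 397 lost the call, 1 gained it and 13 changed sign over all alternatives. Among shares, surface values and counts of genes, 211 kept theirs, 57 moved, 38 lost the call and 2 changed direction. Depth limits the transplant Control (8 cells) and Jarid2 KO (42 and 57 cells) most.

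Sign changes came from few settings. With at least 4 of 6 markers Glcci1 (Jarid2 KO minus Control) was -0.016, and against Ezh2 KO at baseline Igkc was -1.26, Irf4 -0.25 and Jchain -1.10. With light-chain-rich cells left out (chosen after seeing the data) Glcci1 was -0.24 and Ighm -0.037 against Control, and against Ezh2 KO Irf4 was -0.31, Jchain -0.51, Ighm -0.13 and, over both experiments, -0.029. With marked doublets removed Cd34 was -0.23 and Mpo -0.064 in Ezh2 KO minus Control, and Cd34 0.091 in Jarid2 KO minus Ezh2 KO. As log2 count per 1000 RNA UMIs surface Sca1 was 0.0598 (exact p 0.656) and CD150 -0.23 (exact p 0.25), and CD150 medians differed by -0.33 (exact p 0.125).

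Counts of called genes moved most. Baseline Ezh2 KO minus Control (820) gave 316 with DESeq2, 1458 with no filter on low counts, 333 with a mean of at least 20 CPM and 318 with no replicate block (no sex term). Jarid2 KO minus Control (28) gave 250 with no filter, 4 with at least 4 markers, 5 without light-chain-rich cells and 1 with no replicate block. Jarid2 KO minus Ezh2 KO (828) gave 307 with DESeq2, 1501 with no filter, 301 at 20 CPM and 301 with no replicate block. The transplant contrast (179) gave 97 with DESeq2, 452 with no filter, 72 at 20 CPM, 93 with at least 4 markers, 104 without light-chain-rich cells and 325 with the replicate block. There same-numbered libraries share only a number (r = 0.0177). Over both experiments Ezh2 KO minus Control (420) gave 1063 with no filter and 81 at 20 CPM, Jarid2 KO minus Control (3) gave 15 with DESeq2, 187 with no filter and 22 with a sex term as replicate block, and Jarid2 KO minus Ezh2 KO (653) gave 1413 and 161 with no filter and at 20 CPM. Interaction genes for Ezh2 KO (616) numbered 287 against Dntt cells and 132 with limma-voom, and for Jarid2 KO (13) 0 with limma-voom, where 862 of 18532 genes had an unadjusted p under 0.05 with edgeR. With the 8-cell Control in the transplant fit, 2 genes were called for Ezh2 KO and 3 for Jarid2 KO against it. The cause of these moves was not tested.

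Leaving out 1 library at a time gave 619 to 1250 genes for baseline Ezh2 KO minus Control (1250 without the male Jarid2 KO), 46 to 274 for Jarid2 KO minus Control (97 and 149 without the male and female Control, 274 and 267 without Ezh2 KO, 87 and 46 without Jarid2 KO) and 386 to 1415 for Jarid2 KO minus Ezh2 KO (1415 and 1301 without the male and female Control, 386 without the female Jarid2 KO). It gave 82 to 293 for the transplant (92 and 82 without Ezh2 KO 1 and 2, 293 and 92 without Jarid2 KO 1 and 2). Over both experiments it gave 88 to 444 for Ezh2 KO minus Control (88 without the male baseline Control, 200 without the female baseline Ezh2 KO), 1 to 9 for Jarid2 KO minus Control (6 and 1 without the male and female baseline Jarid2 KO, 9 without female baseline Ezh2 KO) and 385 to 705 for Jarid2 KO minus Ezh2 KO (425 and 385 without baseline Ezh2 KO, 423 and 432 without baseline Jarid2 KO). Interaction genes ran from 251 (without the male baseline Control) to 728 for Ezh2 KO and from 9 to 100 for Jarid2 KO (24 and 79 without the baseline Controls, 88 and 100 without Ezh2 KO, 38 without the male Jarid2 KO). Where an arm keeps 1 library, it is assumed to vary like the others.

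Share ratios ran from 2.27 to 6.55 for baseline Ezh2 KO over Control, 32.6 to 43.9 for the transplant and 9.27 to 15.7 over both, and from 0.468 to 1.35, 4.49 to 6.14 and 1.57 to 2.66 for Jarid2 KO over Control, 1.35 being without the male Control. Jarid2 KO over Ezh2 KO ran from 0.157 to 0.269, 0.119 to 0.162 and 0.148 to 0.193. Surface differences in percentage points ran from -12.3 to -10.4 for CD117, -2.22 to -1.99 for CD135, -2.22 to -1.92 for CD150, -3.08 to -2.67 for CD201, 28.5 to 32.3 for CD48 and -12.7 to -10.5 for Sca1, where 5 libraries cannot reach an exact permutation p under 0.05.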
